A study of Arabidopsis thaliana with 12 samples.

Results

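Group X of the ETHYLENE RESPONSE FACTOR (ERF) family in Arabidopsis thaliana was followed across roots of the erf114 mutant and of Col. The 8 genes were taken by symbol or locus: ERF114, ERF115, ERF109, RAP2.6, RAP2.6L, ABR1, ERF110 and ERF112. Of these, 7 were among the 23719 genes listed in the tables, and 6 were among the 18326 genes tested. ERF110 was not analysed here, and ERF115 had too few counts to be tested.

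RNA sequencing had been carried out on roots in 4 groups of 3 libraries: erf114 on MeJA, erf114 on MS, Col on MeJA, and Col on MS. All seeds were chilled at 4 °C on MS medium, a standard salt medium, and germinated for 5 days at 22 °C. MeJA is methyl jasmonate, a form of the wound hormone jasmonate, and was applied for 3 h at 15 µM in one label and 50 µM in the design description, so which dose was used is unclear. The labels give neither the kind nor the position of the erf114 mutation, name 1 mutant line only, and leave unstated whether each replicate was its own culture. The p-values therefore measure only the spread between these libraries, which may be technical.

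Group X proteins are transcription factors with a single AP2 DNA-binding domain. As background, several of them are known from wounding: injury and jasmonate switch them on, and they steer cell division, auxin synthesis and tissue repair. In roots, ERF115 drives division of stem cells and their replacement after cell death, acting with the GRAS protein PAT1. ERF109 links jasmonate to auxin synthesis and lateral root formation. The series' title names ERF114, ERF115 and ERF109 together with JAZ8, a repressor of jasmonate signalling, and the comparisons address how the MeJA response depends on ERF114.

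The family resemblance is visible in the coding sequence of the AP2 domain, and it bears on how well reads of one gene can be told from another. The stretch below is the longest that ERF114 and ERF115 share exactly, 26 bases, set beside the matching 26 bases of the other genes. Sequences are from RefSeq (TAIR10.1), 5′ to 3′ on the coding strand, and capitals mark bases that differ from ERF114.
ERF114: ccatggggaaagtgggcagctgaaat
ERF115: ccatggggaaagtgggcagctgaaat
ABR1: ccatggggaaagtgggcGgctgaGat
ERF110: ccatggggCaaAtgggcagctgaGat
RAP2.6: ccatggggaaaAtgggcGgcGgaGat
RAP2.6L: ccatggggTaaAtgggcGgcAgaaat
ERF112: ccGtggggaaaAtgggcGgctgaGat
ERF109: ccTtggggaaaAtTTgcagctgaGat
ABR1 differed from ERF114 at 2 of these bases, ERF110 at 3, RAP2.6, RAP2.6L and ERF112 at 4 each, and ERF109 at 5. Over the whole coding sequence ERF114 and ERF115 were the closest pair, with 80% identity over 711 aligned bases. The other 27 pairs lay between 61.9% and 75.7%. No identical stretch between any pair of transcripts was longer than 26 bases.

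Promoters are shown for the genes on which the MeJA results turn. Each is the 250 bases before the annotated gene start (RefSeq, TAIR10.1), 5′ to 3′ towards the gene. Capitals mark matches, on either strand, to 4 motifs: the G-box CACGTG and the related AACGTG, both known as sites for the jasmonate factor MYC2, the GCC-box core GCCGCC bound by many ERF proteins, and the W-box core TTGAC bound by WRKY proteins.
RAP2.6 (chr1:16263555-16263804, plus strand): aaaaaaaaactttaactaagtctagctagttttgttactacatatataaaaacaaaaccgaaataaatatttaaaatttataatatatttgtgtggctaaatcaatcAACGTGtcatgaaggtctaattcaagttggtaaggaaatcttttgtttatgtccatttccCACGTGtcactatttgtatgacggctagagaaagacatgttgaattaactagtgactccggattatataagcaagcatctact
ERF109 (chr4:16451626-16451875, plus strand): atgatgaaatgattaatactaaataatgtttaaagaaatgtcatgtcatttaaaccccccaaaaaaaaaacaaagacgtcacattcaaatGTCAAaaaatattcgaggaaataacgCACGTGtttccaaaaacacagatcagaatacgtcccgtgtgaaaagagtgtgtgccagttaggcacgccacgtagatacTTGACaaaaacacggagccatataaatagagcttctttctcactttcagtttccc
ABR1 (chr5:25891199-25891448, plus strand): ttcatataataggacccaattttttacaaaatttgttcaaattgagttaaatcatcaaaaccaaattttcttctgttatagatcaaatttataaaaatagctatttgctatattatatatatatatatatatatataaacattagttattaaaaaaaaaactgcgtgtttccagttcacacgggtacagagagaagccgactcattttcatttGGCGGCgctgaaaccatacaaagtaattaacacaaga
RAP2.6L (chr5:4271480-4271729, plus strand): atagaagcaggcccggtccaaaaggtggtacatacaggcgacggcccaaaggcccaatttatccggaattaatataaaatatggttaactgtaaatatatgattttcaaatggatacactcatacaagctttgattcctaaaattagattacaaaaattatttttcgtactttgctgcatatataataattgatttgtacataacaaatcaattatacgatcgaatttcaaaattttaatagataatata
ERF114 (chr5:24853942-24854191, minus strand): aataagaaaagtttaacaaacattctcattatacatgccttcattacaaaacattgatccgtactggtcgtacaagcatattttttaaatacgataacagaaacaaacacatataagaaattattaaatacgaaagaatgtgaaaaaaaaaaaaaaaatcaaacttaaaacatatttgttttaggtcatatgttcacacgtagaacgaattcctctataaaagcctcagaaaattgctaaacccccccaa
RAP2.6 held a G-box 83 bases and an AACGTG 143 bases before the start. ERF109 held a G-box at 134 bases and TTGAC at 160 and 55 bases, the first of these on the reverse strand. ABR1 held the GCC-box core at 37 bases on the reverse strand. Of the promoters not printed, ERF115 held TTGAC at 106 and 40 bases and ERF112 held it at 166 bases. ERF114, RAP2.6L and ERF110 held none of the 4 in this window, and no matches overlapped each other. Among 27443 promoters of the same length upstream of protein-coding genes, 6.49% held CACGTG, 7.54% AACGTG, 1.87% GCCGCC and 44.9% TTGAC. The matches describe letters only.

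**Figure D1:**
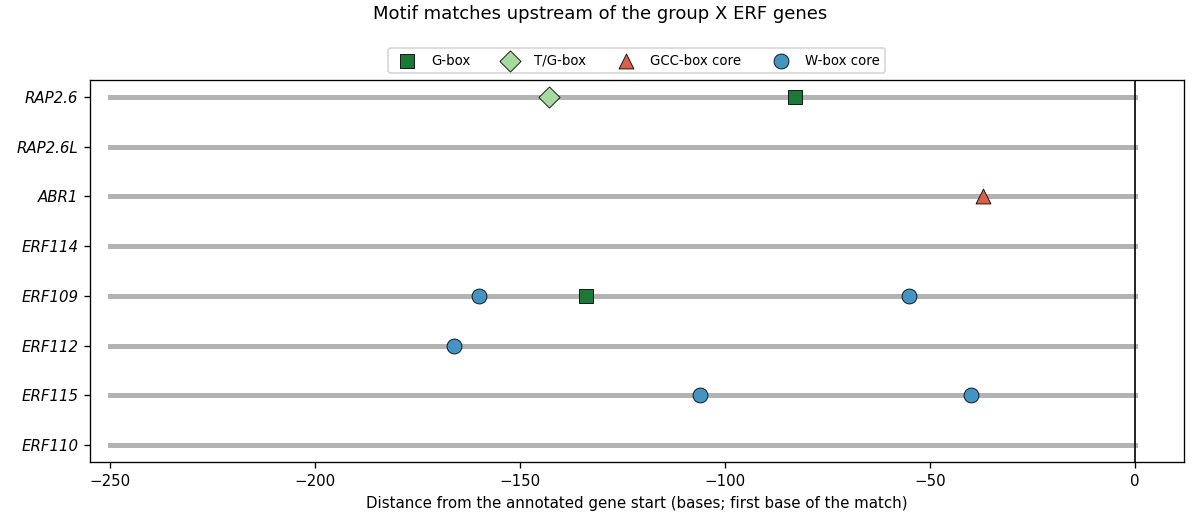
Motif matches in the 250 bases before the annotated start of each group X gene. The x axis is the distance from the start in bases, and each symbol is the first base of 1 match; RAP2.6 and ERF109 each hold a G-box (squares), at 83 and 134 bases.

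Library totals ran from 20546417 to 20897031 estimated counts over 21209 to 21845 listed genes. All 9 root markers were present and tested. The 8 photosynthesis genes used as shoot markers were listed in every library, with summed FPKM of 118 to 696 in erf114 on MeJA, 431 to 1041 in erf114 on MS, 198 to 556 in Col on MeJA and 251 to 1182 in Col on MS. FPKM is a fragment count divided by gene length and by library size. Of the 5 seed storage genes, CRA1, CRU3, SESA1 and SESA3 had higher FPKM in 5 of the 6 erf114 libraries than in any Col library, while SESA4 lay between 4.3 and 8.05 FPKM throughout. Their summed FPKM was 46.5 to 81.5 in erf114 on MeJA and 5.31, 70.8 and 60.9 in the 3 libraries of erf114 on MS, against 7.07 to 9.79 in Col on MeJA and 5.30 to 6.16 in Col on MS. CRU3, a defining storage protein gene, had no value above the tables' minimum in the 6 Col libraries and in erf114 on MS replicate 1, and was set to 0 there. Between genotypes edgeR called 0 of the 5 on MeJA (4 at an unadjusted p under 0.05, and 4 by DESeq2) and 0 on MS (4 at an unadjusted p under 0.05, and 2 by DESeq2). At an unadjusted p under 0.05 with edgeR, 1011 of 18326 tested genes were higher in erf114 on MeJA, and 700 differed on MS. The part of either list in the genotype differences below was not tested. Replicate 3 of erf114 on MS stood apart from its group for jasmonate genes: the 16 core jasmonate genes summed to 1030 FPKM there, against 435 and 430 in replicates 1 and 2.

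RAP2.6, RAP2.6L and ABR1, 3 of the 6 tested genes, rose with MeJA by 7.36- to 13.2-fold in erf114 and by 3.58- to 8.14-fold in Col. For none of these 3 was the difference in rise between genotypes called. ERF114 itself was called higher on MeJA in both genotypes from few counts, and entered the test only through its Col MeJA libraries. ERF109 varied widely between libraries, and its change passed the test in neither genotype. ERF112 rose only 1.84-fold in Col and did not pass the test in erf114, a difference that was itself not called. Between genotypes, RAP2.6, RAP2.6L and ABR1 were each higher in erf114 than in Col on MeJA with no overlap of libraries, as were 4.45% of all tested genes, but RAP2.6L alone passed the test, and that call was lost when any 1 of 9 libraries was left out. On MS none of the 6 tested genes differed between genotypes past the threshold.

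In counts, edgeR (quasi-likelihood test, threshold 0.05 after Benjamini-Hochberg adjustment) called 4 of the 6 tested genes higher on MeJA in erf114, where 10.2% of all tested genes were called higher. In Col it called 5 of 6 higher, where the background was 10.4%. ERF114 passed the filter (3 or more libraries with FPKM of 1 or above) only through Col on MeJA, so it had to differ there and adds nothing to these counts. Without it, 3 of 5 were called in erf114 and 4 of 5 in Col, with median log2 fold changes of 2.88 and 1.84. The median log2 fold change of the 6 was 2.90 in erf114 and 1.99 in Col, against medians over all tested genes of -0.012 and -0.000373. On the deposited FPKM scale the median gene itself moved by -0.28 in erf114 and -0.05 in Col on log2(FPKM + 1), and the folds given here are relative to edgeR's scaling, under which it stayed near 0. By that FPKM scale with limma, 22.6% of called genes were higher in erf114 and 32.7% in Col, against 54.2% and 47.5% with edgeR.

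**Figure D2:**
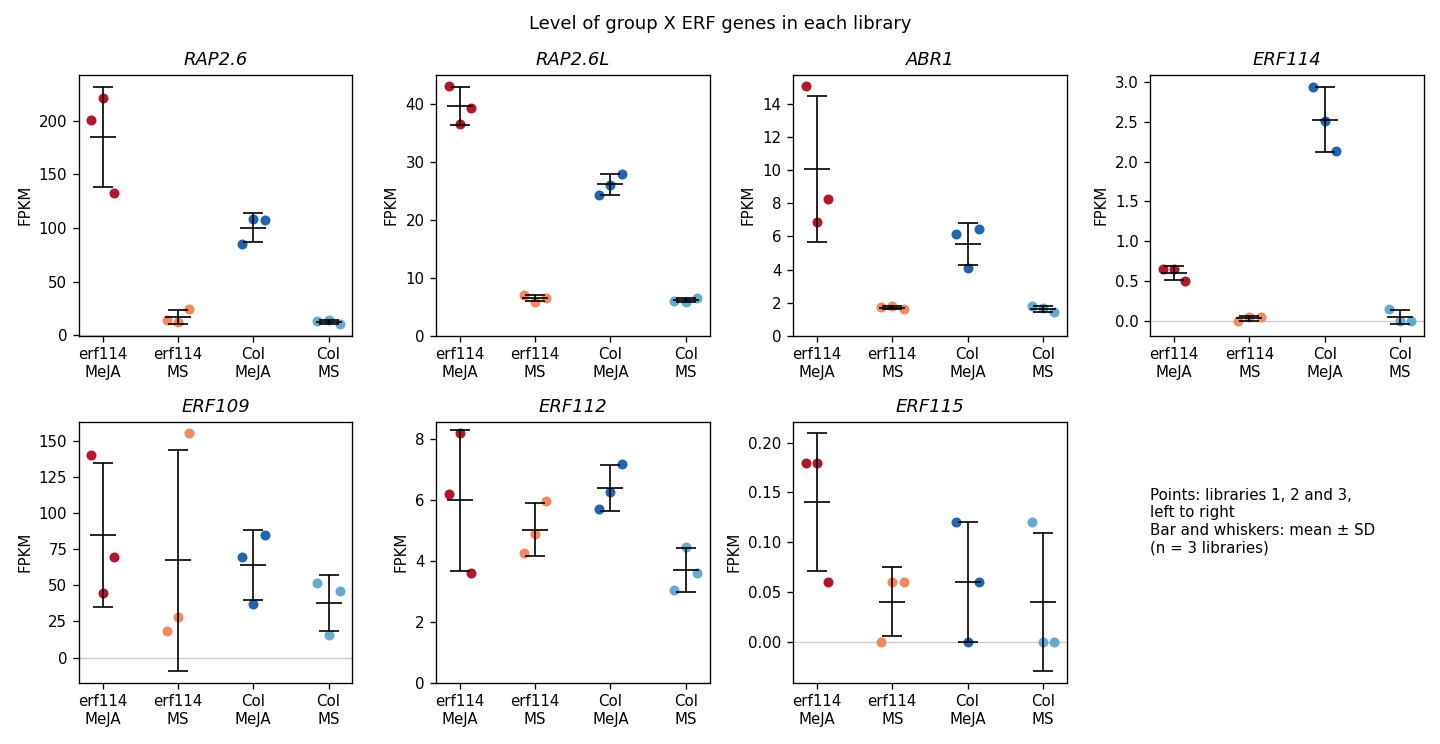
FPKM of the 7 listed genes in each library, with 1 panel per gene and groups from erf114 MeJA on the left to Col MS on the right; points are libraries and whiskers the mean ± SD of 3. RAP2.6, RAP2.6L and ABR1, and ERF114 from few counts, form separate MeJA and MS levels in both genotypes. All MeJA libraries lay above all MS libraries for 7.8% of all tested genes in erf114 and 12% in Col. The 12 ERF109 values run from 15.6 to 155 FPKM with MeJA and MS libraries mixed.

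**Figure D3:**
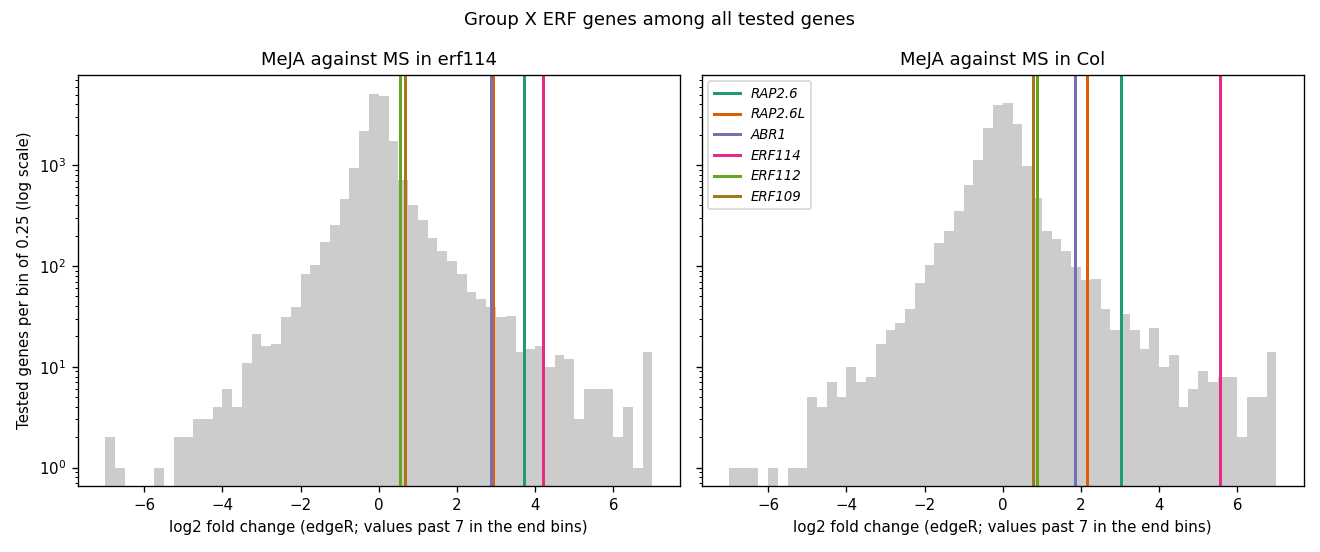
Histograms of the edgeR log2 fold change for MeJA against MS over all 18326 tested genes (log y axis), erf114 on the left and Col on the right, with a vertical line for each group X gene. ERF112 and ERF109 lie between 0.53 and 0.88, and the other 4 lie at 1.84 or above in both panels.

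ERF114 (AT5G61890, chr5:24852322-24853941, minus strand, TAIR10.1), also known as ERF BUD ENHANCER for its effect on shoot branching, is the mutated gene. It checks the labels of the MeJA libraries, while on MS its counts were too few to do so. It had 13, 13 and 10 estimated counts (0.65, 0.65 and 0.50 FPKM) in erf114 on MeJA and 0, 1 and 1 counts in erf114 on MS, against 59, 50 and 42 counts (2.94, 2.51 and 2.13 FPKM) in Col on MeJA and 3, 0 and 0 counts in Col on MS. The Col MeJA libraries were the highest, the erf114 MeJA libraries came next without overlap, and both MS groups were at or near 0.

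On MeJA the mean FPKM of ERF114 was 0.60 ± 0.0866 in erf114 and 2.53 ± 0.405 in Col (SD, n = 3), a ratio of 0.238. Its exact two-sided permutation p was 0.1, the smallest that 3 against 3 libraries allow. From summed counts scaled by edgeR's depth, 36 against 151, the ratio was 0.258 (95% exact interval 0.174 to 0.374, counting error only). The edgeR log2 fold change was -1.95 ± 0.39 (SE), and its adjusted p of 0.0713 missed the threshold. It passed in 5 of 20 alternative settings, among them DESeq2 (adjusted p = 0.000559) and edgeR without Col on MS replicate 1 (adjusted p = 0.0136). Since ERF114 passed the filter only through its Col MeJA libraries, these p-values describe the gene and give no further support for a difference. On MS, 2 counts in erf114 and 3 in Col gave a ratio of 0.623 with an interval from 0.0520 to 5.44, so no difference was detectable at this depth.

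Reads of ERF114 were more frequent on MeJA than on MS in the mutant as well. Summed over 3 libraries there were 36 counts on MeJA and 2 on MS in erf114, a ratio of 22.1 (95% interval 5.68 to 189), and 151 and 3 counts in Col, a ratio of 53.2 (17.9 to 261). With edgeR the rise was 4.21 ± 0.75 on the log2 scale in erf114 (adjusted p = 0.00151) and 5.55 ± 0.59 in Col (adjusted p = 2.47e-05). These fitted values depended on the setting: limma on log2(FPKM + 1) gave 0.63 in erf114 and 1.75 in Col, and a pseudocount of 0.1 gave 2.41 and 4.26. Without Col on MS replicate 1, the only Col MS library with counts, the Col value was 8.72. The interaction was -1.35 ± 1.62 (edgeR adjusted p = 0.722), and its interval of -4.88 to 2.18 covers both a much smaller and a larger rise in the mutant. The position of the mutation in the transcript is not known here, so the counts do not say which part of ERF114 was read.

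ERF115 (AT5G07310, chr5:2305551-2306837, plus strand), the close relative that controls stem cell division and regeneration, was barely seen in whole roots. It had 3, 3 and 1 counts in erf114 on MeJA and 0, 1 and 1 in erf114 on MS, against 2, 0 and 1 in Col on MeJA and 2, 0 and 0 in Col on MS. All groups overlapped, and no library exceeded 0.18 FPKM. On MeJA the summed counts of 7 in erf114 and 3 in Col gave a ratio of 2.53 with an interval of 0.577 to 15.2. MeJA against MS gave ratios of 4.29 (0.817 to 42.3) in erf114 and 1.59 (0.182 to 19.0) in Col. No difference was detectable at this depth, and fewer cells with the transcript cannot be told apart from less transcript per cell in these bulk samples.

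RAP2.6 (AT1G43160, chr1:16263805-16264945, plus strand), a factor known to respond to jasmonate, abscisic acid and salt, was the most abundant of the group on MeJA. Its FPKM was 201, 222 and 132 in erf114 on MeJA and 14.04, 12.9 and 24.5 in erf114 on MS, against 85.3, 109 and 108 in Col on MeJA and 13.01, 14.4 and 10.9 in Col on MS. MeJA libraries lay far above MS libraries in both genotypes, and the lowest erf114 MeJA library was above the highest Col MeJA library. Of all tested genes, 7.8% had all MeJA libraries above all MS libraries in erf114, and 12% in Col.

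RAP2.6 rose 13.2-fold in erf114 (log2 3.72 ± 0.26, edgeR adjusted p = 6.94e-07) and 8.14-fold in Col (log2 3.03 ± 0.25, edgeR adjusted p = 3.25e-06). Of all tested genes, 0.731% moved further than RAP2.6 in erf114 and 1.36% in Col. On MeJA its mean was 185 ± 46.7 FPKM in erf114 and 100.5 ± 13.2 FPKM in Col (SD, n = 3). With edgeR's scaling, which is not that of these means, RAP2.6 differed 2.00-fold (log2 1.00 ± 0.23), and the edgeR adjusted p of 0.121 did not pass. Leaving out replicate 3 of erf114 on MS, its highest library of that group, brought this p to 0.0344 with edgeR, and DESeq2 gave 0.00511. On MS the log2 difference was 0.30 (95% interval -0.23 to 0.83), and the interaction was 0.70 (-0.03 to 1.43, edgeR adjusted p = 0.638).

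RAP2.6L (AT5G13330, chr5:4271730-4274674, plus strand), known from shoot regeneration and the healing of cut stems, had the tightest MeJA replicates of the group. It had 43.3, 36.7 and 39.4 FPKM in erf114 on MeJA and 7, 5.89 and 6.61 FPKM in erf114 on MS, against 24.4, 26.1 and 28.0 FPKM in Col on MeJA and 5.96, 5.88 and 6.61 FPKM in Col on MS. The 2 MS groups overlapped, and the 3 erf114 MeJA libraries lay above the 3 Col MeJA libraries. MeJA raised it 7.58-fold in erf114 (log2 2.92 ± 0.15, edgeR adjusted p = 6.78e-08) and 4.43-fold in Col (log2 2.15 ± 0.15, edgeR adjusted p = 6.74e-07).

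On MeJA, RAP2.6L averaged 39.8 ± 3.31 FPKM in erf114 and 26.2 ± 1.82 FPKM in Col (SD, n = 3). With edgeR's scaling, which is not that of these means, RAP2.6L was 1.67-fold higher in the mutant (log2 0.74 ± 0.14, edgeR adjusted p = 0.0442). It was the only group X gene called in this comparison, where 0.327% of all tested genes were called higher. The call ended without any 1 of the 3 Col MeJA libraries (adjusted p = 0.202, 0.259 and 0.193 without replicates 1, 2 and 3), without erf114 on MeJA replicate 1 or 3 (0.182 and 0.158), without Col on MS replicate 3 (0.0808), and without replicate 1, 2 or 3 of erf114 on MS (0.0538, 0.0671 and 0.0725). It also ended with limma on log2(FPKM + 1) and log2(FPKM + 0.1) (adjusted p = 0.0546 and 0.0673), and with edgeR on only the groups compared, with the replicate block (0.0743) and without it (0.0796). The call held in 7 of 20 alternative settings. The log2 difference stayed between 0.58 and 0.85 in all 20 alternative settings. On MS the log2 difference was -0.04 (95% interval -0.36 to 0.28). The interaction was 0.78 (0.34 to 1.21) with an unadjusted p of 0.00223 and an edgeR adjusted p of 0.638.

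ABR1 (AT5G64750, chr5:25891449-25893888, plus strand), named as a repressor of abscisic acid responses, was low on MS and rose with MeJA. Its FPKM was 15.1, 6.86 and 8.28 in erf114 on MeJA and 1.73, 1.77 and 1.59 in erf114 on MS, against 6.12, 4.12 and 6.43 in Col on MeJA and 1.78, 1.66 and 1.41 in Col on MS. Replicate 1 of erf114 on MeJA was well above the other libraries, and the 2 MeJA groups did not overlap, although their closest libraries were near each other. The rise was 7.36-fold in erf114 (log2 2.88 ± 0.32, edgeR adjusted p = 3.9e-05) and 3.58-fold in Col (log2 1.84 ± 0.32, edgeR adjusted p = 0.00124).

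Between genotypes on MeJA, ABR1 was 1.98-fold higher in erf114 (log2 0.99 ± 0.29, edgeR adjusted p = 0.297), and the log2 difference was 0.59 without erf114 on MeJA replicate 1. The interaction was 1.04 (95% interval 0.06 to 2.02, edgeR adjusted p = 0.638). ABR1 overlaps AT5G64760 on the opposite strand by 109 bases. Whether counting used strand is not given in the sources used here, so reads there cannot be told apart. AT5G64760 ranged from 3.41 to 8.57 FPKM over the 12 libraries and was called in none of the 5 comparisons by edgeR.

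Taking the genotypes on MeJA across the group, 3 genes (RAP2.6, RAP2.6L and ABR1) had all erf114 libraries above all Col libraries in FPKM, as had 4.45% of all tested genes. ERF114 itself had all erf114 libraries below, as had 13% of all tested genes. The FPKM median over all tested genes was 0.11 lower (log2) in erf114 on MeJA than in Col on MeJA. On MS, edgeR called 0 of the 6 (0 at an unadjusted p under 0.05, and 0 by DESeq2), where 0.0327% of tested genes were called in either direction. For the interaction edgeR called 0 of 6 (2 at an unadjusted p under 0.05, RAP2.6L and ABR1, and 0 by DESeq2), where 0.0273% were called. Of all 18326 tested genes, 700 had an unadjusted p under 0.05 with edgeR on MS, and 1107 for the interaction. The median log2 difference of the 6 between genotypes was 0.64 on MeJA and 0.13 on MS, against 0.00769 and 0.00688 over all tested genes. ERF114 passed the filter only through Col on MeJA and adds nothing here. Without it, the median of the other 5 was 0.74 on MeJA and 0.30 on MS.

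**Figure D4:**
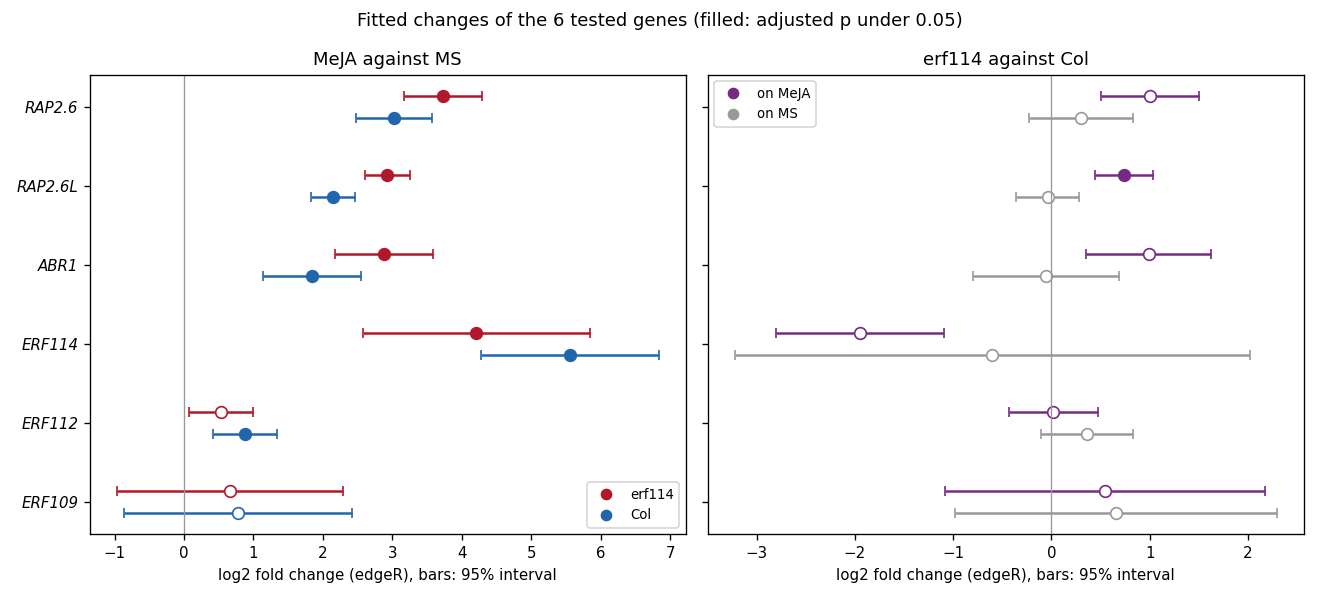
edgeR log2 fold changes (x axis) with 95% intervals for the 6 tested genes, MeJA against MS on the left (erf114 above Col) and erf114 against Col on the right (on MeJA above on MS); filled points have an adjusted p under 0.05. The right panel has 1 filled point, RAP2.6L on MeJA at 0.74, and ERF109 has the widest intervals of the genes above 1 FPKM on MS.

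ERF109 (AT4G34410, chr4:16451876-16453260, plus strand; also RRTF1), a factor switched on rapidly by reactive oxygen, touch and wounding, was the most abundant member on MS and the least steady of those above 1 FPKM. Its FPKM was 140, 44.8 and 69.5 in erf114 on MeJA and 18.7, 27.9 and 155 in erf114 on MS, against 69.8, 37.3 and 85.1 in Col on MeJA and 51.3, 15.6 and 46.1 in Col on MS. The highest value of all 12 was in an erf114 MS library, and MeJA and MS libraries overlapped in both genotypes. Means were 84.9 ± 49.6 and 67.2 ± 76.2 FPKM in erf114 on MeJA and MS, and 64.1 ± 24.4 and 37.7 ± 19.3 FPKM in Col on MeJA and MS (SD, n = 3).

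The MeJA effect on ERF109 was 0.66 ± 0.75 (log2) in erf114 (edgeR adjusted p = 0.658) and 0.77 ± 0.75 in Col (edgeR adjusted p = 0.491). In erf114 the result turned on replicate 3 on MS: without it the log2 change was 2.20 and the edgeR adjusted p 0.0367. In Col, libraries of the same replicate number deviated together across genes, and MeJA over MS within a number was 1.36, 2.39 and 1.85. With the replicate number as a block, the log2 change in Col was 0.91 (edgeR adjusted p = 0.00929) from the 6 Col libraries alone, and 0.88 (edgeR adjusted p = 0.276) in the fit of all 12. Within erf114 the numbers did not pair, and MeJA over MS was 7.52, 1.61 and 0.448.

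Between genotypes the log2 difference of ERF109 was 0.55 on MeJA (95% interval -1.08 to 2.17) and 0.66 on MS (-0.98 to 2.29). Both intervals reach from well below 0 to well above it. ERF109 overlaps AT4G34412 by 301 bases and the long non-coding RNA AT4G08985 by 661 bases, both on the opposite strand. AT4G34412 stayed between 22.8 and 31.0 FPKM in all 12 libraries, a range far narrower than that of ERF109, and AT4G08985 was not analysed here.

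Stress-responsive genes moved with ERF109 from library to library. Across the 12 libraries, the correlation, after each group mean was subtracted, between ERF109 and the summed FPKM was 0.909 for a list of 7 oxidative stress genes, 0.70 for 17 rapid touch and stress genes, and 0.859 for the 16 core jasmonate genes (Pearson r on the log2 scale, n = 12). These are descriptions: the points share library, depth and handling. Replicate 3 of erf114 on MS was highest for ERF109 and for the touch list, which summed to 2721 FPKM there, against 1989 and 1472 FPKM in replicates 1 and 2. The part of such stress in the ERF109 values was not tested.

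JAZ8, the jasmonate repressor of the series' title, followed the same libraries. Its FPKM was 98.3, 31.8 and 55.7 in erf114 on MeJA and 5.04, 10.2 and 47.9 in erf114 on MS, against 55.0, 25.8 and 46.0 in Col on MeJA and 28.5, 4.49 and 11.7 in Col on MS. As with ERF109, replicate 3 was the high library of erf114 on MS and replicate 1 that of erf114 on MeJA, and replicate 2 was the lowest library for both genes in each group but erf114 on MS. The Pearson r of log2(FPKM + 1) between the genes was 0.911 over the 12 libraries and 0.955 for deviations from the group means, with 20 and 12 tested genes correlating more closely with ERF109. The MeJA effect on JAZ8 was 1.89 ± 0.82 (log2) in erf114 (edgeR adjusted p = 0.148) and 1.46 ± 0.82 in Col (edgeR adjusted p = 0.235).

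**Figure D5:**
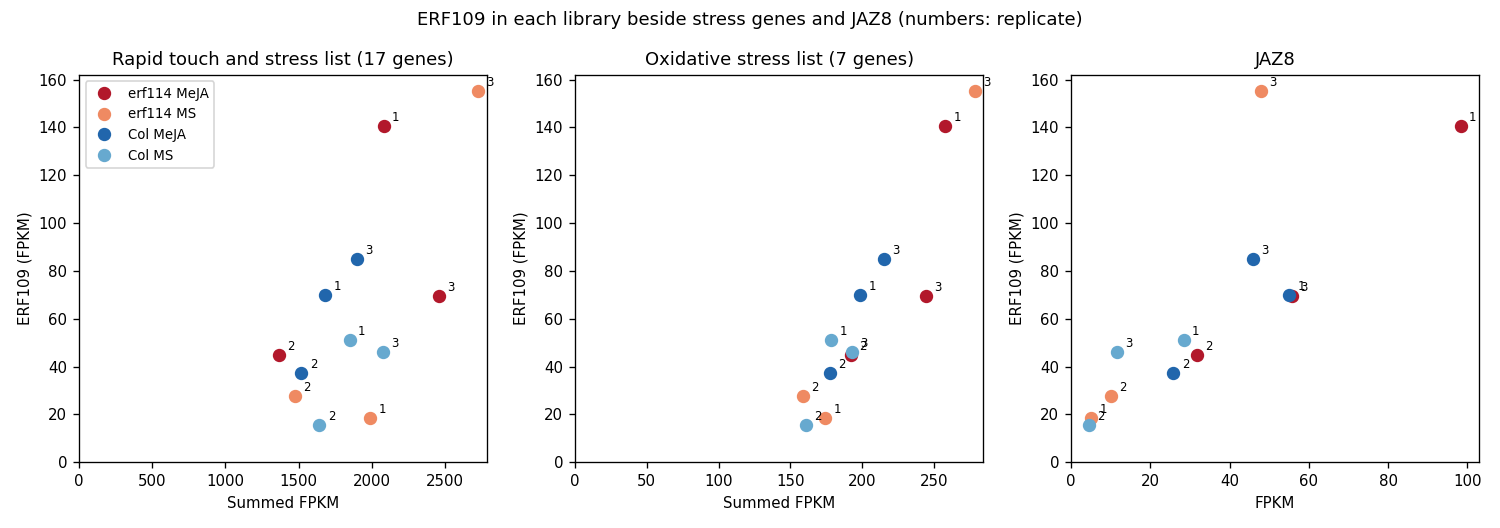
FPKM of ERF109 in each library (y axis) against the summed FPKM of the touch and stress list, that of the oxidative stress list, and the FPKM of JAZ8 (x axes); colours are the 4 groups and numbers the replicates. Replicate 3 of erf114 on MS (155 FPKM) and replicate 1 of erf114 on MeJA (140 FPKM) have the highest ERF109 values; on the x axes the first is highest for both stress lists and the second for JAZ8 (98.3 FPKM).

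ERF112 (AT2G33710, chr2:14258509-14260904, minus strand) had small changes between modest levels. It had 6.19, 8.21 and 3.59 FPKM in erf114 on MeJA and 4.26, 4.87 and 5.96 FPKM in erf114 on MS, against 5.71, 6.27 and 7.20 FPKM in Col on MeJA and 3.03, 4.47 and 3.59 FPKM in Col on MS. The Col MeJA libraries were all above the Col MS libraries, as for 12% of all tested genes. The erf114 MeJA libraries spanned the erf114 MS libraries. In Col it rose 1.84-fold (log2 0.88 ± 0.21, edgeR adjusted p = 0.0106). In erf114 the log2 change was 0.53 ± 0.21 (edgeR adjusted p = 0.111), and without replicate 3 on MeJA it was 0.75 with an edgeR adjusted p of 0.00968. The Col call held in 18 of 20 alternative settings, and was lost among others with limma on log2(FPKM + 1), where the adjusted p was 0.0548. The interaction was -0.34 (95% interval -0.997 to 0.308), and the genotype difference was 0.02 on MeJA and 0.36 on MS.

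Since FPKM is scaled by length, levels can be set in order. On MS, ERF109 was highest in both genotypes, ahead of RAP2.6, RAP2.6L, ERF112 and ABR1, with ERF114 and ERF115 near 0. In erf114 on MS the libraries of ERF109 and RAP2.6 overlapped, as did those of RAP2.6L and ERF112. In Col on MS each of the first 5 stood clear of the next. On MeJA, RAP2.6 took the lead over ERF109 in both genotypes, with overlapping libraries in erf114 and none in Col, where the nearest libraries had 85.3 FPKM of RAP2.6 and 85.1 FPKM of ERF109. RAP2.6 made up 49.4 to 69.5% of the summed FPKM of the 7 genes in erf114 on MeJA, against 43.9 to 58.7% in Col on MeJA. On MS the largest share was that of ERF109, 40.9 to 80% in erf114 and 37.2 to 68.1% in Col.

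Among themselves, RAP2.6, RAP2.6L and ABR1 had the most similar profiles. Over the 12 libraries, Pearson r of log2(FPKM + 1) was 0.982 for RAP2.6 with RAP2.6L, 0.959 for RAP2.6L with ABR1 and 0.936 for RAP2.6 with ABR1. Within groups the same pairs had r of 0.0971, 0.432 and -0.0191, so the likeness lay mainly between the means of the 4 groups, which differ in medium and genotype. The highest within-group r was 0.783, for RAP2.6 with ERF112. All these values come from the same 12 libraries and carry no test.

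The genes most like each member over the 12 libraries, by the same r, were led by CYP94B1, which inactivates jasmonoyl-isoleucine, for RAP2.6 (0.992) and by AT5G35945 (0.993) and CYP94B1 (0.992) for RAP2.6L. AT1G17830 and AT5G35945 (both 0.983) came first for ABR1. SRO5 (0.974), the calcium sensor gene CBL1 (0.958) and the calcium-dependent kinase gene CPK28 (0.949) came first for ERF109. RSL2, a root hair factor, was closest to ERF112 (0.967). For ERF114 it was the near-identical pair AT3G28290 and AT3G28300 (0.979), whose counts may share reads. By deviations from the group means, AT2G25460 (0.987), AT4G37710 (0.979) and RBOHD (0.978), which encodes an enzyme that makes reactive oxygen, were closest to ERF109.

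Of 11 genes that group X factors are known to act on or with, 10 were tested, and edgeR called 4 higher and 1 lower on MeJA in erf114, and 6 higher and 1 lower in Col. Over all tested genes, 10.2% were called higher and 8.59% lower in erf114, and 10.4% and 11.5% in Col. PSK2 and PSK5, precursors of the growth peptide phytosulfokine, had log2 changes of 3.78 and 2.59 in erf114 (edgeR adjusted p = 1.21e-05 and 1.53e-05) and 3.86 and 2.59 in Col (edgeR adjusted p = 1.11e-05 and 1.83e-05). ASA1, the first enzyme of tryptophan synthesis and a target of ERF109, had changes of 2.45 in erf114 and 2.89 in Col (edgeR adjusted p = 1.22e-06 and 4.17e-07). GATA23, a lateral root founder cell factor, fell by 1.34 in erf114 and 0.94 in Col (edgeR adjusted p = 0.0053 and 0.0353).

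Of 14 other wound regeneration factors, 8 were tested. Of these, edgeR called 0 higher and 1 lower in erf114, and 1 higher and 3 lower in Col. The shares over all tested genes were 10.2% higher and 8.59% lower in erf114, and 10.4% and 11.5% in Col. LBD29, a lateral root factor, fell by 0.93 in erf114 and 0.95 in Col (edgeR adjusted p = 0.00523 and 0.00372). PLT3 rose by 0.85 in Col (edgeR adjusted p = 0.0122), where LBD18 and WIND3 fell by 0.97 and 0.76 (edgeR adjusted p = 0.0211 and 0.0199). In erf114 their log2 changes were 0.24, -0.28 and -0.07.

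Core jasmonate genes give the scale of the hormone response. Of 16, edgeR called 8 higher in erf114 and 10 in Col, and none lower. Of all tested genes, 10.2% were called higher and 8.59% lower in erf114, and 10.4% and 11.5% in Col. The largest were the repressor genes JAZ13 (log2 4.84 in erf114, 5.28 in Col), JAZ10 (4.54 and 4.74), JAZ9 (3.56 and 3.49) and JAZ5 (2.64 and 3.21), with edgeR adjusted p-values of 4.24e-05 to 0.00059. The change of RAP2.6 lay within this range in erf114 and just under it in Col. Of 8 abscisic acid response genes 5 were tested, and edgeR called HAI1, a phosphatase gene, higher in erf114 (log2 1.70, adjusted p = 0.00517) and 0 in Col. In Col the HAI1 change was 0.74 (edgeR adjusted p = 0.158).

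Of the 6 tested oxidative stress genes, AOX1A, a mitochondrial oxidase gene, rose in both genotypes (log2 0.76 in erf114 and 0.58 in Col, edgeR adjusted p = 0.000158 and 0.00121), and FER1, an iron store gene, fell by 0.50 in Col (edgeR adjusted p = 0.0242). Of 16 tested touch and stress genes, edgeR called 2 higher and 2 lower in erf114, and 1 higher and 4 lower in Col. The shares over all tested genes were 10.2% higher and 8.59% lower in erf114, and 10.4% and 11.5% in Col. WRKY40, a stress-induced WRKY factor gene, rose in both (log2 1.5 in erf114 and 1.92 in Col, edgeR adjusted p = 0.0431 and 0.0115), and ERF5 fell by 1.06 in erf114 and 1.03 in Col (edgeR adjusted p = 0.00703 and 0.00775). ERF105 fell in both as well, by 0.94 in erf114 and 0.98 in Col (edgeR adjusted p = 0.0175 and 0.0133). ZAT12 rose by 1.21 in erf114 (edgeR adjusted p = 0.0262), and its log2 change in Col was 0.63 (edgeR adjusted p = 0.217). In Col CBF1 and ERF6 fell by 1.99 and 1.97 (edgeR adjusted p = 0.00945 and 0.0098). Their log2 changes in erf114 were -0.54 and -1.23 (edgeR adjusted p = 0.503 and 0.0949). Over these 6 context lists, 61 genes were tested between genotypes. On MeJA edgeR called 0 of them (8 at an unadjusted p under 0.05), and DESeq2 called 1, the seed and abscisic acid gene RAB18 (log2 4.27, DESeq2 adjusted p = 0.000461), which is named after its value was seen. On MS edgeR called 0 (3 at an unadjusted p under 0.05, and 0 by DESeq2), and for the interaction 0 (4 at an unadjusted p under 0.05, and 0 by DESeq2). Over all 18326 tested genes, 700 had an unadjusted edgeR p under 0.05 on MS and 1107 for the interaction. On MeJA 1011 did so with higher levels in erf114, the direction of all 8 above.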

How the data were processed

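Roots of 4 groups with 3 libraries each were sequenced. Per the file headers, the authors deposited a read count, TPM and FPKM per gene and library. The deposited read counts, of which 1.54 to 1.72% hold fractions, are estimated counts and were rounded here. The deposited TPM (scaled to a fixed total) served only to find the smallest listed value, 0.01. The deposited FPKM gave the levels, the filter and the log2 alternatives. Tables hold no gene under a minimum level, and a gene absent from one library was given 0 there. For the aligner, counter, strand setting and build the entry is: not given in the sources used here. All 23719 gene identifiers matched RefSeq TAIR10.1, the source of names, positions and sequences.

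Tests used R 4.3.3 and edgeR 4.0.16: TMM scaling, a filter of 3 or more libraries with FPKM of 1 or above (18326 genes), 1 mean per group, all 12 libraries, the quasi-likelihood test, and Benjamini-Hochberg adjustment over all tested genes at 0.05 for 5 contrasts. The script was tested on simulated data. The SE is the log2 fold change over the root of F. The biological coefficient of variation was 17.9% with 8 residual degrees of freedom, which limits the precision. Totals of 20546417 to 20897031 counts left ERF114 and ERF115 at few counts; their ratios have 95% exact conditional binomial intervals that cover counting error only. limma 3.58.1, DESeq2 1.42.0, other scaling, no filter, replicate blocks and leaving out each library were alternatives. Correlations, motif searches and alignments used Python 3.11.15, pandas 2.3.3 and Biopython 1.88, and the permutation test and binomial intervals scipy 1.17.1.

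Replicate numbers were taken to pair groups where the correlation of their deviations passed 0.1 in every number. Libraries of different numbers were not compared, so whether unpaired libraries would also pass was not tested. By this check Col on MeJA and MS paired (0.431, 0.427 and 0.259), as did erf114 and Col on MS (0.201, 0.21 and 0.299), and no other contrast did. What same-numbered libraries share is not in the labels. No replicates matched within sampling noise (chi-square per gene 7.1 to 61.3). The members and lists were chosen with earlier results of these data known. Genes named are all members, the 3 most alike by each correlation, of which the report gives the leading ones, seed storage genes as markers, up to 4 called genes with the largest change per list and MeJA contrast, JAZ8, and RAB18, which was named after its value was seen.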

Additional observations from a re-analysis of the deposited data

How the results depend on the processing

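The rises of RAP2.6, RAP2.6L and ABR1 on MeJA passed the test in both genotypes in all 20 alternative settings. The genes of the group called ranged from 4 to 5 in erf114 and from 4 to 6 in Col, and were 0 on MS and for the interaction. Between genotypes on MeJA the count was 1 (RAP2.6L), and it was 0 with limma on log2(FPKM + 0.1), 3 with DESeq2 (ERF114, RAP2.6 and RAP2.6L), 2 with the replicate block on only the groups compared (ERF114 and RAP2.6), and 0 to 2 with a library left out. With limma on log2(FPKM + 1) and with only the groups compared it was also 1, but the gene was ERF114. Calls of ERF114 add nothing to these counts, since it passed the filter only through Col on MeJA. Over all tested genes, MeJA in erf114 gave 5419 calls with limma on log2(FPKM + 1), 5352 with a pseudocount of 0.1 and 2028 with the replicate block on only the groups compared, against 3438. With that block, the contrasts whose numbers paired gave 5339 for MeJA in Col, against 4026, and 9 for genotype on MS, against 6. erf114 against Col gave 233 on MeJA with DESeq2 (19 to 133 with a library left out), against 70, and on MS 19 with DESeq2, 3 with only the groups compared and 3 to 16 with a library left out, against 6. The interaction gave 43 with DESeq2 and 0 to 8 with a library left out, against 5. With the replicate block in the fit of all 12 libraries there were 3674 calls for MeJA in erf114, 4405 in Col, 87 for genotype on MeJA and 4 on MS, and in that fit it changed no call of a group X gene. The fits on only the groups compared were chosen after seeing the data. The ratio of ERF114 on MeJA was 0.220 to 0.259 with a library left out. The causes of these shifts were not tested. Depth limits ERF114 on MS and ERF115 throughout.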
